A study of Mus musculus with 4 samples.

Results

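The peaks described here are the places in transcripts without a protein-coding class where RNA piled up after immunoprecipitation of Flag-tagged Lin28b from mouse cells. A peak belonged to the set when its summit lay within a gene on the same strand with any class other than protein-coding. The summit also had to lie within no protein-coding gene of that strand. Classes came from the authors' mutant table, the only one that gives them. The 1277 genes in the wild-type table alone have no class, so wild-type peaks could not enter the set through them. By contrast, 2 genes of the set stood in the mutant table alone. The rule found 112 of 11912 peaks of the wild-type list (0.940%, exact Clopper-Pearson 95% interval 0.775 to 1.13%) and 130 of 15931 peaks of the mutant list (0.816%, interval 0.682 to 0.968%). These 242 peaks fell in 87 genes of 10 classes, out of 2679 noncoding and pseudogene genes and 16 such classes in the table.

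The cells were pancreatic cancer-associated fibroblasts of the line 15376CAFs, and every library came from cells that overexpressed Flag-tagged Lin28b. One group carried the wild-type protein (Lin28b-WT) and the other a mutant deficient in RNA binding (Lin28b-MU), whose changed residues the labels do not give. From each construct there was 1 library of RNA recovered with anti-Flag antibody (IP) and 1 library of input RNA, made with a stranded mRNA kit. With 1 library in each of 4 groups no difference has a replicate check, no test between constructs was possible, and every interval below covers counting error only.

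Lin28b is known for holding back the maturation of let-7 microRNAs: it grips the terminal loop of the precursor hairpin, where its zinc knuckles read a GGAG-type motif. It also binds many other RNAs. Long noncoding RNAs include nuclear scaffolds, transcripts antisense to coding genes and the primary transcripts from which microRNAs are cut. Pseudogenes are gene copies: processed ones arose from reverse-transcribed mRNA and often match a live gene closely, so that short reads can be shared with the parent, and unprocessed ones arose by duplication of DNA. Values for single pseudogenes are uncertain for that reason.

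Levels were read as FPKM (read density scaled to gene length and library size) and were normalised separately for each construct. Markers were looked up by symbol, which the mutant table alone gives, so a marker in the wild-type table alone could not be found. The tables listed 4 of 12 fibroblast markers, with summed input levels of 609 with the wild-type protein and 549 with the mutant, of which Vim made up 547 in the mutant. They listed 6 of 8 epithelial markers, keratins among them, with sums of 2030 and 1388. None of 3 endothelial markers was found in this way (0 of 3), and 1 of 4 leukocyte markers was, at 2.45 or less. Of 4 acinar markers, Cela1 was listed, at 2.13 in the mutant input, and was not in the wild-type table. Lin28b stood at 8.99 FPKM in the wild-type IP against 13.8 in the input, and at 36.7 against 30.01 in the mutant, and the tables do not separate the tagged transcript from the cells' own. The part of cell identity and of the level of Lin28b in the values below was not tested.

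The hairpins that Lin28b is best known for are shown first, because 5 of the 11 let-7 hairpins in the RefSeq table lie inside genes of this set. RefSeq (GRCm38.p6) gives the hairpins below, 5′ to 3′, with GGAG in capitals. Mirlet7a-1 (chr13:48538179-48538272), Mirlet7f-1 (chr13:48537829-48537917) and Mirlet7d (chr13:48536012-48536114) lie on the minus strand within the lincRNA gene 6720427I07Rik, Mirlet7i (chr10:122985640-122985724) on the minus strand within D630033A02Rik, and Mirlet7a-2 (chr9:41536716-41536811) on the plus strand within Mir100hg.
Mirlet7a-1: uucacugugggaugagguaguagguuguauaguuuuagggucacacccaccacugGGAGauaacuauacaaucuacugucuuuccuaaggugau
Mirlet7f-1: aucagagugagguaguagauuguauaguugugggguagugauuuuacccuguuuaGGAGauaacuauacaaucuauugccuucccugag
Mirlet7d: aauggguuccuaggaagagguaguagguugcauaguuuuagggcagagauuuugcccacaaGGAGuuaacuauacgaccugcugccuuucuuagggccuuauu
Mirlet7i: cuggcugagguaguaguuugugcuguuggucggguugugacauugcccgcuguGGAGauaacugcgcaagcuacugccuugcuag
Mirlet7a-2: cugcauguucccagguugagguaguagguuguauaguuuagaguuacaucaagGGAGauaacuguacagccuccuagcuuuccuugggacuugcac

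GGAG was searched on the transcript strand alone, with overlapping matches counted once. All 5 of these hairpins hold it, as do 9 of the 11 let-7 hairpins and 447 of the 1005 hairpins in the RefSeq table (44.5%). A match of these letters is a description and not a bound site. The mature RNAs cut from their 5′ arms share 1 seed, which is bases 2 to 8 and stands in capitals below. The other 3 hairpins within genes of the set carry other seeds, and their 5′ arm products are given for contrast.
mmu-let-7a-5p: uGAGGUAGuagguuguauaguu
mmu-let-7f-5p: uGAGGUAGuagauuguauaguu
mmu-let-7d-5p: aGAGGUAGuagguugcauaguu
mmu-let-7i-5p: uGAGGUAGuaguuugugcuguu
mmu-miR-100-5p: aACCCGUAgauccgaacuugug
mmu-miR-125b-5p: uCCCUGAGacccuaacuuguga
mmu-miR-16-5p: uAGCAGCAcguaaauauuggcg

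Wild-type peaks lay at the let-7 hairpins of both short host genes, and mutant peaks did not. In 6720427I07Rik (chr13:48532905-48546500, minus strand) a single wild-type peak of 2665 bases, chr13:48535497-48538161, covered the hairpins of let-7f-1 and let-7d and ended 17 bases short of let-7a-1. Its fold, which is the authors' enrichment at the summit, was 9.16. The 3 hairpins stand in 1 cluster, so this is 1 peak over 1 transcript and not 3 separate observations. In D630033A02Rik (chr10:122985074-122986555), annotated as a transcribed processed pseudogene, the wild-type peak chr10:122984995-122985548 began 91 bases past the let-7i hairpin and had a fold of 9.21. Over the genome, a wild-type peak lay on 2 of 11 let-7 hairpins and within 1000 bases of 4. The mutant list gave 0 and 0, and its nearest peak lay 1564 bases from Mirlet7f-2, with a fold of 4.30. Of all 1005 hairpins, 13 (1.29%) lay under a wild-type peak and 14 (1.39%) under a mutant peak. The share of all hairpins within 1000 bases of a peak was not counted.

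The levels of these host genes also differed between the constructs. 6720427I07Rik stood at 6.01 FPKM in the wild-type IP against 0.437 in its input, and at 0.176 in the mutant IP against 0.598 in its input. Both inputs were thus below 1, and the wild-type IP was the high library. On the log2 scale with 0.01 added to each level, the IP stood 3.75 above input in the wild type and −1.71 relative to input in the mutant. D630033A02Rik stood at 2.84 in the wild-type IP against 0.204 in the input, a log2 ratio of 3.73. In the mutant it was listed at 0 in the IP and at 0.339 in the input, so no fold is given for it there. A host gene's level includes the reads under its own peak, so the level and the peak are not independent measurements.

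The longer microRNA hosts had weaker wild-type ratios, and their peaks lay farther from the hairpins than those of the short hosts. Mir100hg (chr9:41327077-41716994) hosts miR-100, let-7a-2 and miR-125b-1 over 389918 bases. Its 1 wild-type peak, chr9:41591739-41592157 with a fold of 6.90, lay 9736 bases past the miR-125b-1 hairpin and 54927 bases past let-7a-2. Mir100hg stood at 4.88 against 3.51 in the wild type (log2 ratio 0.47) and at 5.35 against 12.7 in the mutant (−1.24). Dleu2 hosts the miR-16-1 hairpin and held 2 wild-type peaks, with folds of 5.99 and 4.74. The nearer peak lay 629 bases upstream of that hairpin. Dleu2 stood at 3.89 against 3.16 in the wild type (0.30) and at 0.720 against 2.59 in the mutant (−1.83).

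The fixed list of microRNA hosts includes Mir100hg but not 6720427I07Rik, D630033A02Rik or Dleu2. Of its 13 genes, 7 were found by symbol in the mutant table, and all 7 were also in the wild-type table. A gene is called enriched when the IP stood at least 2-fold over input with the authors' deposited q-value under 0.05, and lower for the converse. That q-value compares 1 library with 1 library. On this list 1 gene was enriched and 0 were lower in the wild type, with a median log2 ratio of 0.59, where 7.4% of all genes were enriched and 21.5% lower. The enriched gene was Mir155hg, at 0.146 FPKM in the IP and listed at 0 in the input. In the mutant 0 were enriched and 4 lower, with a median of −1.24, where 5.98% of all genes were enriched and 36% lower. The median over all genes was −0.29 with the wild-type protein and −0.61 with the mutant. Mir22hg and Mir17hg, which held no peak, had wild-type ratios of 0.92 and 0.90 and mutant ratios of −1.28 and −1.31.

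**Figure D1:**
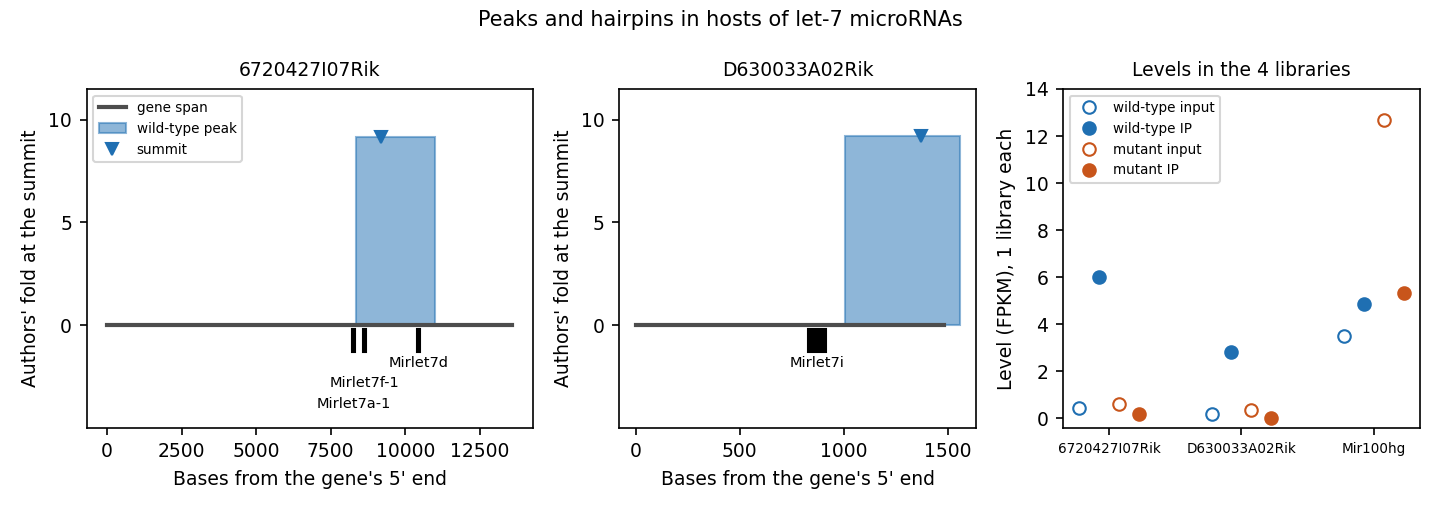
The left and middle panels plot the authors' fold of the wild-type peak against the distance in bases from the 5′ end of each host gene, with hairpins as black bars; the right panel plots FPKM in each of the 4 single libraries. The wild-type peak spans Mirlet7f-1 and Mirlet7d and lies beside Mirlet7i, and the wild-type IP is the highest library for 6720427I07Rik and D630033A02Rik but not for Mir100hg.

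The gene classes of the peaks differed between the lists. Pseudogene classes held 45 of the 112 wild-type peaks (40.2%, exact interval 31.0 to 49.9%) and 9 of the 130 mutant peaks (6.92%, interval 3.21 to 12.7%). The remaining 67 wild-type and 121 mutant peaks lay in noncoding RNA classes. Of the 2679 noncoding and pseudogene genes listed, 1232 had a pseudogene class. By gene, pseudogenes were 33 of the 65 with wild-type peaks and 8 of the 40 with mutant peaks. The intervals count peaks as independent, although several can lie in 1 gene. LincRNAs, which are intergenic long noncoding RNAs, held 47 wild-type peaks in 20 genes and 44 mutant peaks in 15 genes. Antisense transcripts held 11 wild-type peaks in 7 genes and 60 mutant peaks in 12 genes, and a single gene, Airn, held 37 of those 60. Processed pseudogenes held 22 wild-type and 5 mutant peaks, and unprocessed pseudogenes 11 and 2. Processed transcripts, a class of spliced RNAs without a reading frame, held 9 and 12.

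Few noncoding genes held a peak at all. A wild-type summit lay in 73 of 2679 noncoding and pseudogene genes (2.72%), against 3317 of 11748 protein-coding genes (28.2%). For the mutant list the counts were 43 (1.61%) and 2479 (21.1%). For noncoding genes these counts take every summit in the span, including those also within a protein-coding gene of that strand. The genes of the set, 65 with wild-type and 40 with mutant peaks, were more abundant than their class. Their median input level was 3.11 FPKM with the wild-type protein and 2.32 with the mutant. The medians over all noncoding genes were 0.565 and 0.464. The part of abundance in these counts was not tested.

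**Figure D2:**
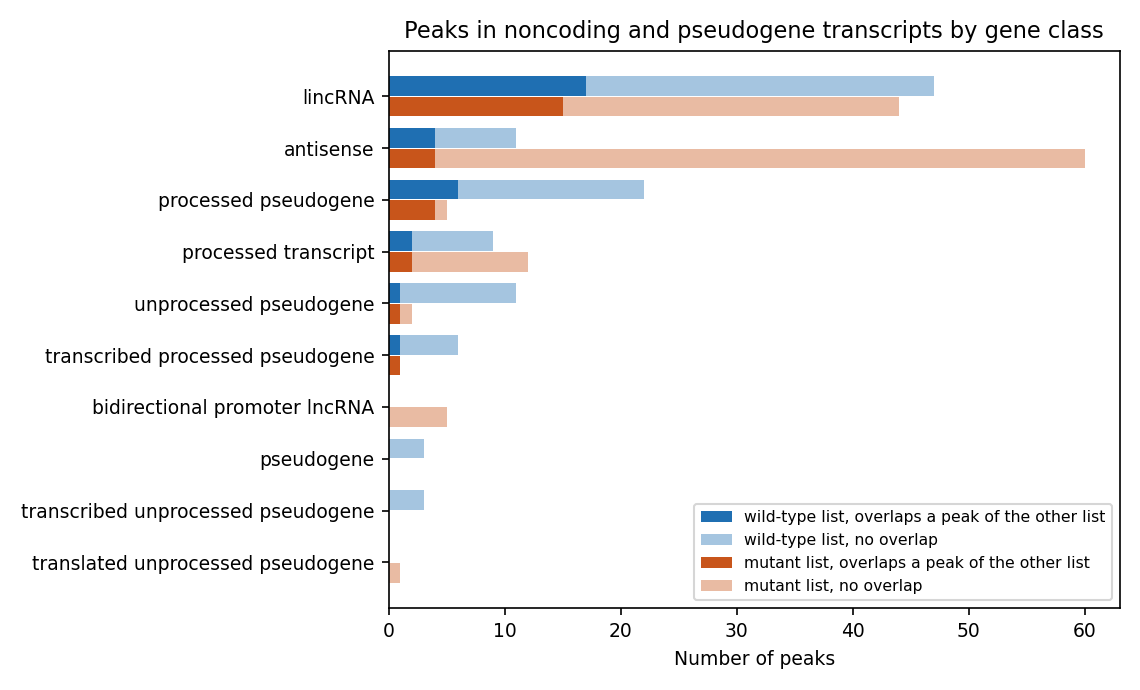
Horizontal bars give the number of peaks per gene class in each list, with the darker part of each bar for peaks that overlap a peak of the other list by at least 1 base on the same strand. Antisense transcripts hold 60 mutant and 11 wild-type peaks, and processed pseudogenes hold 22 wild-type and 5 mutant peaks.

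Most peaks in these transcripts were found in 1 list alone. Of the wild-type members, 31 of 112 overlapped a mutant peak (27.7%, interval 19.6 to 36.9%), where the share over the whole wild-type list was 49.6%. Of the mutant members, 27 of 130 overlapped a wild-type peak (20.8%, interval 14.2 to 28.8%), where the share over the whole mutant list was 36.2%. The difference from the whole list was not tested. Requiring the overlap to cover 50% of both peaks left 12.5% of wild-type and 10% of mutant members shared, and leaving out Airn gave 29.0% for the mutant. With the mutant list shortened to the wild-type length by the authors' q-value, the shares were 16.96% of wild-type and 30.4% of mutant members, so the order of the lists depends on their lengths. The genes followed the same division: 18 of 87 held peaks of both lists, 47 held wild-type peaks alone and 22 held mutant peaks alone.

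Median folds of the members lay near those of their lists, and their median q-values were less extreme. Wild-type members had a median fold of 3.52 (range 1.15 to 33.0), beside 3.77 over all wild-type peaks. Mutant members had a median fold of 4.54 (range 1.33 to 57.0), beside 4.22 over all mutant peaks. The median −log10 q-value of the authors was 8.36 for wild-type members and 9.15 for mutant members, where the whole lists had 21.3 and 25.5. Member peaks were broader than their lists, with median widths of 356 and 417.5 bases against 256 and 255. In each list the members that were not shared had a higher median fold than the shared ones. The values were 4.08 against 3.24 in the wild type and 4.79 against 3.65 in the mutant. Their median −log10 q-values ran the other way, at 7.56 against 13.9 in the wild type and 8.86 against 13.2 in the mutant. Of the 103 mutant members that were not shared, 37 lay in Airn, with a median fold of 5.36.

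**Figure D3:**
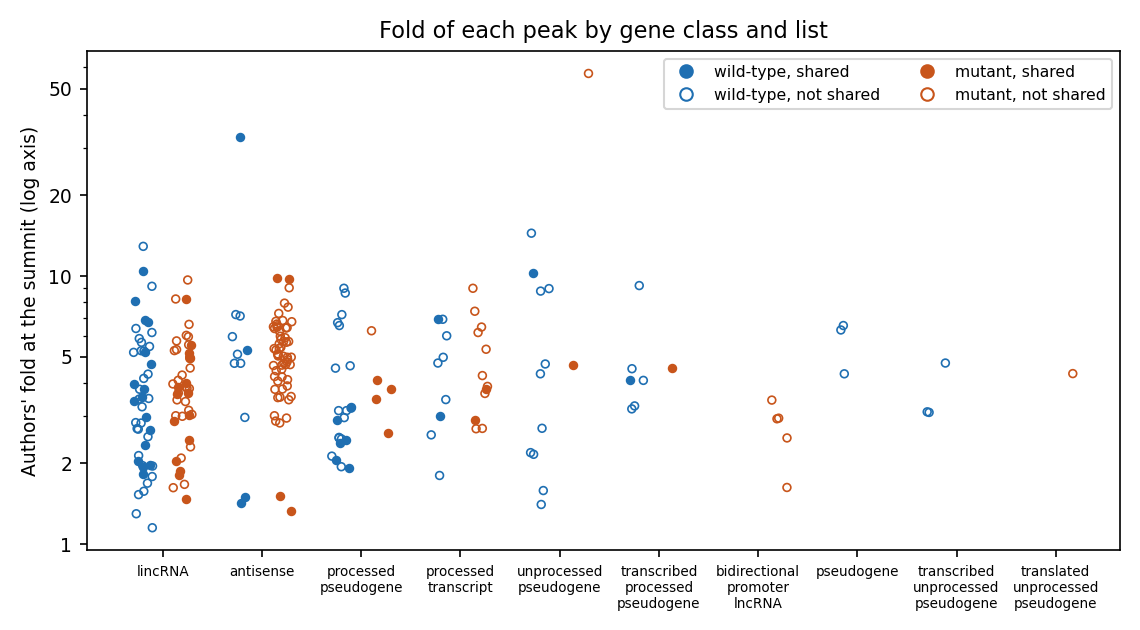
Each point is 1 peak, plotted by gene class along the horizontal axis and by the authors' fold at the summit on a log axis; filled points are shared between the lists and open points are not. Most points lie between 1.5 and 10 (103 of 112 wild-type and 127 of 130 mutant), 5 wild-type and 1 mutant peak lie above 10, and the highest are B930036N10Rik in the wild-type list (33.0) and Gm8979 in the mutant list (57.0).

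The strongest shared peak stood in a transcript that the IPs did not enrich. B930036N10Rik, an antisense transcript on chr1:171500568-171504111, had a wild-type peak with a fold of 33.0 at chr1:171503064-171503273 and a mutant peak with a fold of 9.71 at the same start. The summits were 34 bases apart. Its whole-gene level was 0.180 FPKM in the wild-type IP against 0.447 in the input, and 0.285 against 0.825 in the mutant. The gene was called lower in both constructs, at log2 ratios of −1.26 and −1.499, while a stretch of about 200 bases within it carried the highest fold of the wild-type members.

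The other strong shared peaks were in lincRNAs, an antisense transcript and a pseudogene. Gm20939 held 2 shared pairs near its 3′ end, and the stronger had folds of 10.5 in the wild-type list and 8.24 in the mutant list. This gene was enriched in both constructs, at 3.87 against 0.903 FPKM in the wild type and 4.86 against 1.67 in the mutant. RefSeq lists Gm20939 as protein-coding, unlike the authors' table. Gm46430 held a shared pair with folds of 6.88 and 5.51 and, in the wild-type list, an unshared peak of 12.9 that was among the strongest of the wild-type members. Its levels were 19.1 against 5.20 in the wild type (log2 ratio 1.87) and 6.90 against 5.88 in the mutant (0.23), and RefSeq lists it too as protein-coding. Gm21092, an unprocessed pseudogene, had folds of 10.2 and 4.64 with summits 2 bases apart. The lincRNA Gm32856 had a wild-type peak of 8.09 at its 3′ end, which overlapped a mutant peak of 9.16 that the rule did not take into the set. Its ratios were 1.15 and 0.81, and RefSeq lists it too as protein-coding.

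At D330050I16Rik the shared peak sat at the start of the gene. This antisense transcript (chr19:5388336-5389601, plus strand) lies opposite the 5′ end of Sart1, which encodes a splicing factor. Its peaks had folds of 5.31 in the wild-type list and 9.84 in the mutant list, with summits 3 bases apart and about 140 bases into the gene. The mutant peak also overlapped a mutant peak on the opposite strand. D330050I16Rik stood at 0.887 against 1.62 FPKM in the wild type and at 1.11 against 1.23 in the mutant, so neither IP was above its input. The 41 bases that the wild-type peak shares with the RefSeq start window are printed because they are the stretch of this strong shared peak that the sequence tables cover.
D330050I16Rik chr19:5388345-5388385 plus strand: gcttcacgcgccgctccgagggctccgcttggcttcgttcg
This stretch holds 0 GGAG, and 29.4% of 32851 RefSeq start windows trimmed to the same length hold at least 1.

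In all, 32 pairs of overlapping peaks were found in 16 genes. The median distance between their summits was 136 bases, and in 13 pairs the summits lay within 50 bases. Oip5os1 (chr2:119594297-119607502), also known as Cyrano and known for directing the decay of the microRNA miR-7, had the most even coverage. It held 4 wild-type peaks with folds from 2.67 to 3.95 and 6 mutant peaks with folds from 1.47 to 3.99, and all 10 were shared. Its levels were near identical between the constructs, at 26.6 against 11.7 FPKM in the wild type and 26.5 against 11.8 in the mutant, for log2 ratios of 1.18 and 1.17. It was enriched in both.

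AL928616.1 and 2900097C17Rik also held several peaks of both lists. AL928616.1, annotated as a Rasa4 pseudogene, had 5 wild-type peaks (folds 1.92 to 2.91) and 2 mutant peaks (3.49 and 4.11). It stood at 4.47 against 1.12 FPKM in the wild type and at 5.36 against 0.597 in the mutant, and was enriched in both. RefSeq places this span inside the coding gene Ctnnd1, the gene of p120 catenin, on the same strand. Ctnnd1 itself had log2 ratios of −0.04 and 0.31. 2900097C17Rik, a lincRNA, had 4 wild-type peaks (1.94 to 5.19) and 2 mutant peaks (2.88 and 3.62) and stood at 45.3 against 30.9 and at 87.2 against 40.9. E430024I08Rik, with 4 wild-type peaks and 1 mutant peak, was enriched in both constructs, at log2 ratios of 1.63 and 1.24.

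Mutant peaks concentrated in a few long noncoding RNAs. The 3 genes with the most peaks held 55 of the 130 mutant members (42.3%), while in the wild-type list the top 3 held 14 of 112 (12.5%). Airn, the imprinted antisense transcript that silences Igf2r in mouse, led with 37 mutant peaks and 0 wild-type peaks. Airn (chr17:12741311-12860136, plus strand) spans 118826 bases, and its mutant peaks covered 19292 of them (16.2%), with folds from 3.01 to 9.04 and a median of 5.36. The last summit lay 82844 bases from the start. None of the 37 lay over a mutant peak of the opposite strand.

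The Airn peaks crowded toward the gene's start, where it runs opposite Igf2r. Of the 37 summits, 24 lay opposite Igf2r, a stretch that makes up 23.9% of the Airn span, and 13 lay beyond it. Airn stood at 3.12 FPKM in the wild-type IP against 2.98 in the input, and at 6.33 in the mutant IP against 2.45 in the input. The inputs were close, and the mutant IP was the high library. The log2 ratios were 0.07 with the wild-type protein and 1.36 with the mutant, where Airn was enriched. Igf2r, the receptor gene on the other strand, stood at 17.2 against 21.3 in the wild type (−0.30) and at 54.0 against 32.6 in the mutant (0.73). The part of Igf2r reads in the Airn peaks was not tested.

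The next mutant-rich genes differed in level. A930015D03Rik (chr17:35994453-36038435), an antisense transcript that runs opposite class I histocompatibility genes such as H2-T24, held 10 mutant peaks with folds from 3.45 to 7.92. They lay between 717 and 18389 bases from its start, and none overlapped an opposite-strand mutant peak. Its level was low, at 0.332 FPKM in the mutant IP against 0.218 in the input, and in the wild type it stood at 0.125 against 0.864 and was called lower. Of the 10 summits, 3 lay opposite H2-T24, which stood at 7.39 in the mutant input and at 0.388 in the wild-type input.

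Xist, the RNA that coats and silences the inactive X chromosome, held 8 mutant peaks (folds 1.62 to 3.86) and 1 wild-type peak (3.47), none of them shared. Its input level was 11.9 FPKM in the mutant cells and 0.936 in the wild-type cells. The log2 ratios were alike, at 0.45 (16.3 against 11.9) and 0.26 (1.12 against 0.936), and Xist was called neither enriched nor lower in either construct. The higher count of mutant peaks stood beside a higher input level.

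Gm47814, a predicted lincRNA of 7417 bases (chr14:24438987-24446403, minus strand), was covered over most of its span. Its 7 mutant peaks had folds from 4.54 to 8.21, and 5697 of its bases (76.8%) lay under them, while it held 0 wild-type peaks. By the same measure the 4 mutant peaks of the lincRNA AU020206 covered 82.5% of its 13062 bases. Gm47814 stood at 6.54 FPKM in the mutant IP against 0.780 in the input (log2 ratio 3.05) and at 1.07 against 0.617 in the wild type (0.79). Its first mutant peak, chr14:24446053-24446442, reached over the start of the gene, and the part within the RefSeq start window is shown with GGAG in capitals.
Gm47814 chr14:24446241-24446442 minus strand: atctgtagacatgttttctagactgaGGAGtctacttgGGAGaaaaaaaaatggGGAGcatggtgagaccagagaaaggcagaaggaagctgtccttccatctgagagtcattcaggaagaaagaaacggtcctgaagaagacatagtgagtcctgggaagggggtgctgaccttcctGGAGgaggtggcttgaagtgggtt
These 202 bases hold GGAG 4 times without overlap, and 73.9% of RefSeq start windows of the same length hold it at least once. RefSeq starts the transcript at chr14:24446290, so on the minus strand most of the printed bases lie upstream of that start. So do all the marked GGAG but the last. The peak summit, at chr14:24446163, lies outside the printed bases.

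In A930037H05Rik the mutant peaks coincided with those of a coding gene on the other strand. All 6 of its peaks, with folds from 3.87 to 9.003, overlapped mutant peaks on the opposite strand, where Rnf213 lies, a gene for a large ubiquitin ligase. Rnf213 stood at 465 FPKM in the mutant IP against 127 in the input, and at 17.03 against 11.4 in the wild type. A930037H05Rik itself was at 0.191 against 0.435 in the mutant and was called lower there. Over an opposite-strand peak of the same list lay 9 of the 130 mutant members (6.92%), beside 3.48% of all mutant peaks, and 1 of the 112 wild-type members (0.893%), beside 1.61% of all wild-type peaks. How far reads of the wrong strand made up such peaks was not tested.

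Single strong mutant peaks stood in other genes. Gm8979, an unprocessed pseudogene on chr7:106076751-106084046, carried the highest fold of all members, 57.0, over 241 bases, and stood at 1.07 FPKM in the mutant IP against 0.0983 in the input (log2 ratio 3.32). Gm8979 was not listed in the wild-type table. 2700054A10Rik, a lincRNA gene of 186339 bases, had 3 mutant peaks of up to 9.67, while its level stood at 1.42 against 1.77. Gm14122, a processed pseudogene, had a mutant peak of 6.25 and was enriched in both constructs, with ratios of 2.58 with the wild-type protein and 2.54 with the mutant. B230354K17Rik, a transcript from a bidirectional promoter, held 5 mutant peaks (1.63 to 3.45), with ratios of 0.66 and 0.71.

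**Figure D4:**
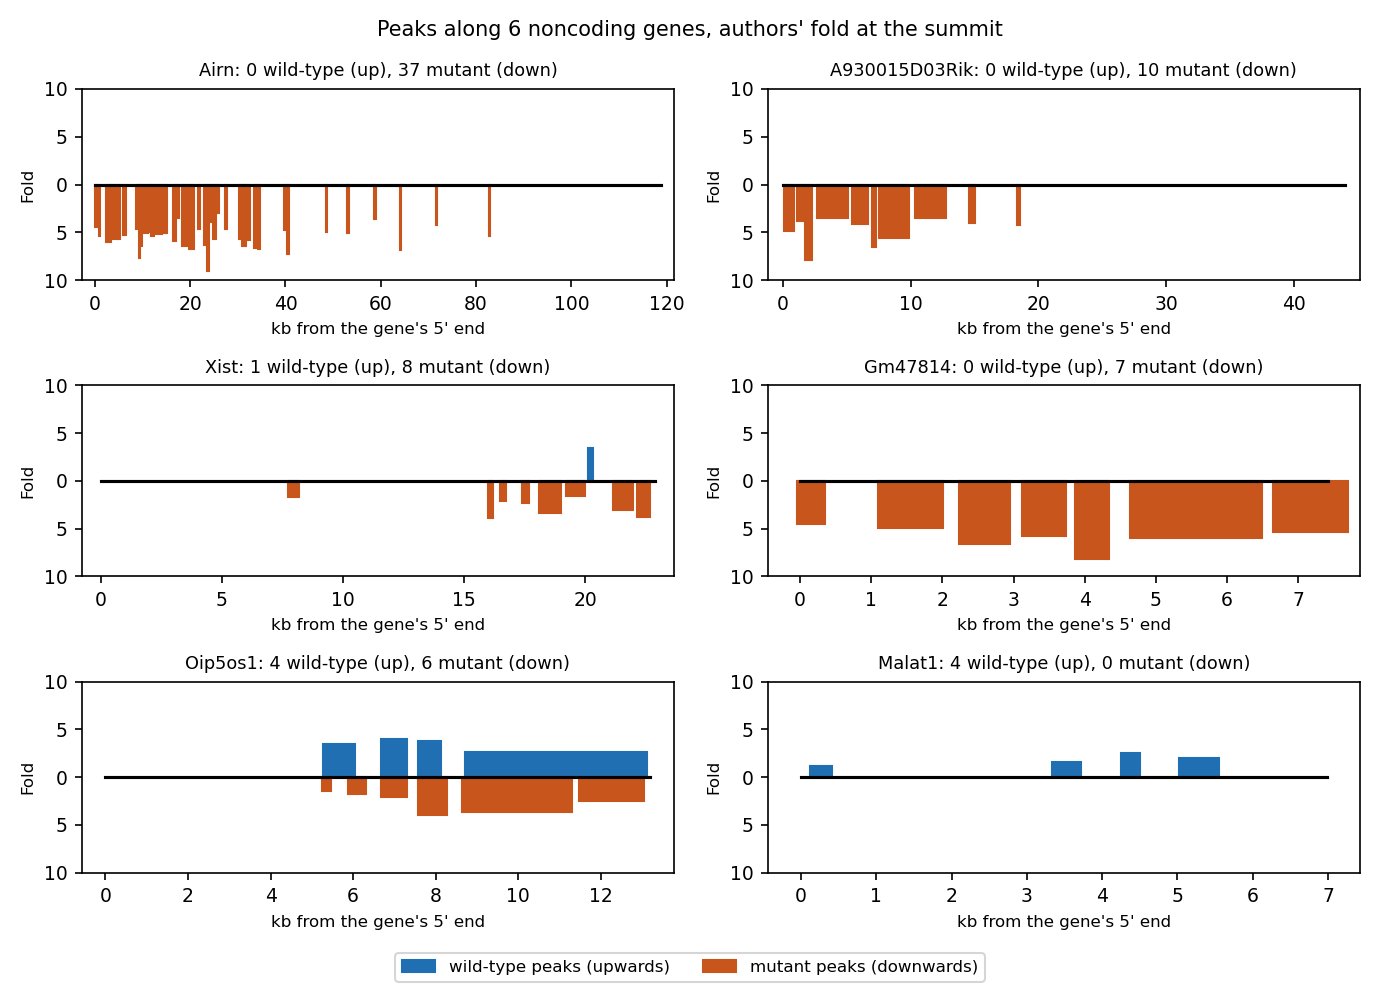
For 6 noncoding RNAs, peaks are drawn along the gene in kb from its 5′ end, with the authors' fold of wild-type peaks upwards and of mutant peaks downwards. Airn and A930015D03Rik carry mutant peaks from their starts inwards, Gm47814 is covered over most of its length, Oip5os1 carries both kinds at the same places, and Malat1 carries wild-type peaks alone.

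Malat1 and Neat1 carried wild-type peaks alone. Malat1, an abundant RNA of nuclear speckles, had 4 wild-type peaks with folds of 2.52, 1.95, 1.57 and 1.15, the last being the lowest fold of the wild-type members. It stood at 309 FPKM in the wild-type IP against 332 in the input, and at 65.1 in the mutant IP against 273 in the input. The mutant IP was thus the low library, and Malat1 was called lower there. Neat1, the scaffold of paraspeckles, had 2 wild-type peaks (2.84 and 2.68), with levels of 18.7 against 27.6 in the wild type (−0.56) and 14.5 against 37.9 in the mutant (−1.39).

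On the list of nuclear architectural lncRNAs, 10 of 20 genes were found by symbol in the mutant table, and all 10 were also in the wild-type table. Of these, 5 held wild-type peaks (Malat1, Neat1, Oip5os1, Xist and Dleu2) and 3 held mutant peaks (Oip5os1, Xist and Airn). In the wild type 2 genes were enriched and 0 lower, with a median log2 ratio of 0.28, where 7.4% and 21.5% of all genes were. In the mutant 2 were enriched and 3 lower, with a median of 0.04, where 5.98% and 36% of all genes were, so the count of lower calls was near the background. Tug1, 1 of the 10, has a protein-coding class in the table and could hold no member peak, although summits of both lists lay in it. The genes called lower in the mutant were Malat1, Neat1 and Dleu2.

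Pseudogenes with peaks of a list stood high in the IP of that list, whose reads make up both the peaks and the levels, so this direction is fixed in part by the choice of genes. The 33 pseudogenes with wild-type peaks included 18 that were enriched and 0 that were lower in the wild type, with a median log2 ratio of 1.18, where 7.4% of all genes were enriched and 21.5% lower. In the mutant 5 of the 33 were enriched and 11 lower, with a median of −0.75, and a lower call was made there for 36% of all genes. The 8 pseudogenes with mutant peaks had 5 enriched and 1 lower in the mutant, with a median of 1.52. Gm8979 among them was not in the wild-type table. The rest had 3 enriched and 0 lower in the wild type, with a median of 0.83. Rps16-ps2, a processed copy of the ribosomal protein gene Rps16, had a wild-type peak of 6.70 and stood at 87.9 FPKM in the wild-type IP against 19.7 in the input, and at 1.83 against 14.9 in the mutant. Its log2 ratios were 2.15 and −3.02. The parent gene Rps16 had ratios of 1.72 and −2.05, and reads shared between parent and copy cannot be told apart in these tables.

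Most other ribosomal protein pseudogenes were called lower in each IP. The list holds 117 genes in the mutant table, of which 108 were also in the wild-type table. Of these, 5 have a protein-coding class and could hold no member peak. Among the other 112, Rps16-ps2 and Rpl5-ps1 held a wild-type peak, and 0 held a mutant peak. With the wild-type protein 1 was enriched and 68 were called lower (median log2 ratio −1.45), and with the mutant 3 were enriched and 97 called lower (median −3.17). Over all genes the lower calls came to 21.5% and 36%. Rpl5-ps1 had a peak of 7.18 and stood at 2.45 against 1.61 in the wild type and at 0.231 against 0.839 in the mutant.

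Unprocessed pseudogenes on chromosome 1 formed a cluster. Within 4663 bases, Gm28439, Gm28437, Gm10925 and Gm29216 each held 1 wild-type peak and 0 mutant peaks, with folds of 1.58, 4.70, 1.41 and 2.19. Gm29216, the most abundant, stood at 237 FPKM in the wild-type IP against 141 in the input, and at 23.3 against 169 in the mutant. Gm28437 stood at 92.4 against 33.6 in the wild type (log2 ratio 1.46) and at 2.58 against 43.2 in the mutant (−4.06). The inputs of all 4 were within 2-fold between the constructs, and the mutant IP was the low library for each. The peak of Gm28437 was the 1 wild-type member that overlapped a wild-type peak of the opposite strand. Mouse chromosome 1 is known to hold a nuclear copy of mitochondrial DNA. For the mitochondrially encoded genes mt-Co3 and mt-Atp6 the wild-type ratios were 1.22 and 0.76, and the mutant ratios were −3.74 and −2.65. The mitochondrial genome held 13 wild-type and 0 mutant peaks, of which 0 lay over mt-Co3 or mt-Atp6 and 1 over mt-Co1. How reads were divided between such copies was not tested.

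Other pseudogenes with strong wild-type peaks varied in level. Gm21811, an unprocessed pseudogene on chromosome 8 of nearly the same length as Gm21092 (15164 and 15175 bases), had peaks of 14.5 and 8.79 and a whole-gene ratio of 0.50 with the wild-type protein and −0.79 with the mutant. Gm10509, which RefSeq lists as protein-coding, had a peak of 9.004 and was enriched in both, at ratios of 1.9996 and 1.16. Gm8623 had a peak of 8.64 and stood at 3.44 FPKM against 0.424 in the wild type (2.99) and at 0.0742 against 0.444 in the mutant (−2.43). Gm3365, with a peak of 8.98, stood at 0.835 against 0.556 and at 0.691 against 0.615. Capza1-ps1, a copy of an actin-capping subunit gene, held 3 wild-type peaks (4.32 to 6.54) and was enriched in the wild type, with ratios of 1.47 and 0.04. Gm13230 had a peak of 4.74 and ratios of 2.36 and 0.05.

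Gm42047 stood apart among lincRNAs by its input. It held 5 wild-type peaks with folds from 1.30 to 3.25 and 0 mutant peaks. RefSeq places these 5 summits inside the coding gene Gm42048 on the same strand. Gm42047 stood at 65.0 FPKM against 49.8 in the wild type and at 0.0566 against 0.113 in the mutant. The transcript was thus abundant in the wild-type cells and near the bottom of the table in the mutant cells. Among the 47 genes with wild-type peaks alone, the mutant input was at least 2-fold lower in 8, within 2-fold in 36 and at least 2-fold higher in 3. Among the 20 genes with mutant peaks alone that were in both tables, the wild-type input was at least 2-fold lower in 3, within 2-fold in 15 and at least 2-fold higher in 2.

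Across the set, genes with peaks were often enriched in the IP that gave the peaks, which share reads with the levels. Of the 65 genes with wild-type peaks, 31 were enriched in the wild type, where 7.4% of all genes were, and 1 was lower, where 21.5% were. In the mutant 10 of these 65 were enriched and 18 lower. Of the 40 genes with mutant peaks, 18 were enriched in the mutant, where 5.98% of all genes were, and 3 were lower, where 36% were. Of the 38 of them in the wild-type table, 7 were enriched and 2 lower there. With 1 added to each level in place of 0.01, the counts enriched were 20 with the wild-type protein and 10 with the mutant.

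Of the 85 genes of the set in both tables, 9 were enriched in both constructs, where 1.68% of all genes in both tables were. Another 7 were enriched in the wild type and lower in the mutant, where 1.13% of all genes were, and 0 showed the converse, where 0.171% did. Lower calls were more frequent in the mutant table at large, and the genes were chosen by peaks from the same IPs. The ratio was higher with the wild-type protein in 43 of the 47 genes with wild-type peaks alone and in 5 of the 20 with mutant peaks alone. Grouping by the IP that gave a peak largely fixes that direction, so nothing is read from it. Over all genes in both tables it was higher with the wild-type protein in 8518 of 13478 (63.2%).

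**Figure D5:**
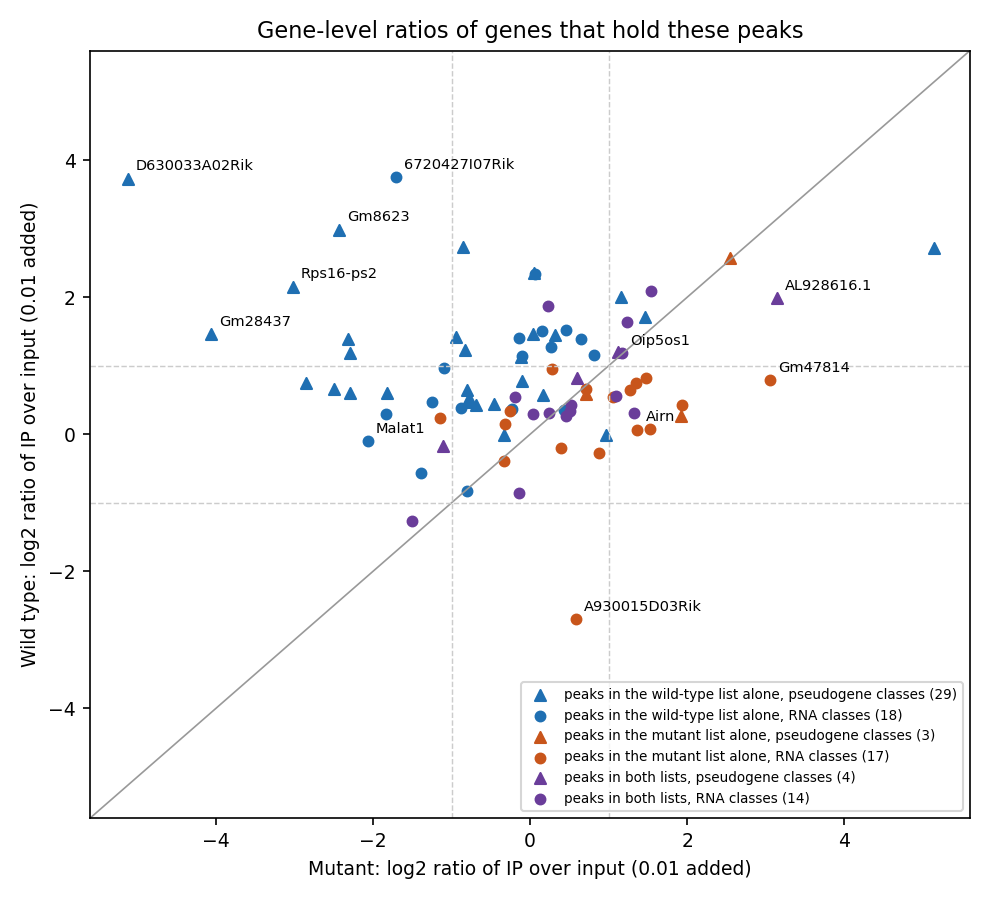
Each point is 1 of 85 genes listed in both tables, with its log2 ratio of IP over input in the mutant on the horizontal axis and in the wild type on the vertical axis, 0.01 added to each level; the solid line marks equal ratios and the dashed lines 2-fold. Genes with wild-type peaks alone lie mostly above the line (43 of 47), and genes with mutant peaks alone mostly below it (15 of 20); points of genes listed at 0 in a library are placed by the added 0.01.

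Within genes, the lists differed in where the summits lay. Of the wild-type members 54 of 112 lay in the third of the gene span nearest its 3′ end and 25 in the third nearest its 5′ end, with a median position 65.6% along the gene. Of the mutant members 30 of 130 lay in the 3′ part and 64 in the 5′ part so defined, with a median of 33.5%. Airn gave 29 and A930015D03Rik 8 of those 64. Without these genes 27 of 83 mutant summits lay in the 5′ part and 29 in the 3′ part, with a median of 54.3%, so the lean to the 5′ end rested on them. Summits opposite a protein-coding gene numbered 41 of 130 among the mutant members (31.5%) and 1 of 112 among the wild-type members (0.893%). Airn gave 24 of the 41. The same share over all peaks of each list was not computed, so this contrast has no background.

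Some members depend on how the genes are annotated. RefSeq spans classed as protein-coding on the same strand held 29 of the wild-type summits, in 13 genes, and 14 of the mutant summits, in 8 genes. Without them, 83 wild-type and 116 mutant peaks were left, of which 25.3% and 17.2% were shared. Gene spans include introns, and exons were not assigned.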

How the data were processed

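The data were 2 gene tables and 2 peak lists from 4 mouse RIP-seq libraries, 1 per group. The submitters' processing notes name bedtools, HOMER 4.11.1, MACS2 2.2.7.1 and HISAT2 2.1.0 and the builds GRCm38 and mm10, with no roles given. The authors deposited 1 level per gene and library, read here as FPKM from the values because the header names no unit. The deposited tables add, per the file headers, a q-value, a p-value and a log2 ratio for every gene. The ratio recomputed from the levels with 0.01 added differed from the deposited one by at most 1.57e-09. Each table was normalised apart from the other, and symbols and classes stood in the mutant table alone. The deposited peak lists gave, per strand, a display score, a fold (a ratio at the summit), −log10 p and −log10 q and the distance to the summit. The fold is the authors' own value, used within its list. The test behind the q-values and the control of the peak calling are not given in the sources used here. Read totals are unknown, so levels have no counting interval.

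Summits were placed in gene spans on the same strand with Python 3.11.15, pandas 2.3.3 and numpy 2.4.6, and exact intervals came from scipy 1.17.1; placement and overlap were tested on simulated data. Shared means an overlap of at least 1 base on the same strand. Sequences came from RefSeq tables (GRCm38.p6). The planned motif search at peak summits needs a genome and was not analysed here. Named genes are those of the 12 strongest peaks per list, the 6 genes with most peaks per list, the strongest of each class with at least 3 peaks, members of the fixed lists with a peak, and the 6 strongest shared pairs. Ties for the most peaks were broken by the symbols' alphabetical order. Other genes were named after their values were seen. The members, lists and rules were chosen with earlier results of these data known. Columns of per-sample values not used numbered 0.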

Additional observations from a re-analysis of the deposited data

Results flagged for a closer look

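For 7 genes with wild-type peaks the IP was enriched over input in the wild type and lower than input in the mutant, so the single libraries of the constructs moved in opposite directions. The difference between constructs was not tested, since each had 1 library pair. The wild-type minus mutant difference in log2 ratio was 8.86 for D630033A02Rik, a size set by the added 0.01 because the gene is listed at 0 in the mutant IP. The difference was 5.46 for 6720427I07Rik, and these are the genes at the let-7i hairpin and at the let-7a-1, let-7f-1 and let-7d cluster. It was 5.52 for Gm28437 and 3.71 for Gm28439, neighbours on chromosome 1. It was 5.42 for Gm8623, 5.18 for Rps16-ps2 and 3.47 for Gm4204, which are processed pseudogenes. For Gm4204 the levels were 10.9 FPKM in the wild-type IP against 4.82 in the input, and 1.51 against 7.45 in the mutant.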

How the results depend on the processing

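No paired analysis was possible because there was 1 library per group, and no replicate could be left out. Of 42 alternative values for the 8 main counts, shares and medians, 33 stayed within 1.5 times a count or within the interval or spread of a value, and 9 moved. With a reciprocal overlap of 50%, 12.5% of wild-type and 10% of mutant members were shared. With the mutant list shortened to the wild-type length by the authors' q-value, the shares were 16.96% and 30.4%. The strongest peak of each gene alone gave a wild-type median fold of 4.62. A pseudocount of 1 left 20 genes with wild-type peaks and 10 with mutant peaks enriched. Leaving out Airn, an alternative chosen after seeing the data, gave 29.0% shared and a median fold of 3.87 for the mutant. Also chosen after seeing the data were leaving out RefSeq coding spans, leaving out peaks over opposite-strand peaks, and reading the summit 1 base apart, and none of the values under these moved. Placement without regard to strand gave 117 wild-type and 95 mutant members. Unknown read depth limits the low levels most: a gene listed at 0 has no floor here.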

Other observations

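Among genes that host small nucleolar RNAs in their introns, the 17 listed entries of noncoding class held 0 summits of either list. Of the 2 entries with a protein-coding class, which the rule leaves out, 2 held a wild-type summit and 1 a mutant summit. Over all 19 entries, the wild-type IP enriched 0 and was lower for 8, with a median log2 ratio of −0.89, and the mutant IP enriched 0 and was lower for 18, with a median of −2.53. The lower calls over all genes came to 21.5% in the wild-type table and 36% in the mutant table. Gas5, the host of many box C/D small nucleolar RNAs, stood at 72.2 FPKM in the wild-type IP against 133 in the input, and at 14.1 against 115 in the mutant. Snhg12 stood at 6.57 against 12.3 and at 1.05 against 12.2. Snhg18 had a wild-type ratio of 0.46, at levels of 0.189 against 0.135. Over all noncoding and pseudogene genes the median ratio was −0.54 with the wild-type protein and −1.36 with the mutant.

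Of the structural small RNAs, Terc and Rmrp were listed and neither held a peak. Terc, the template RNA of telomerase, stood at 0.0911 FPKM in the wild-type IP against 21.0 in the input, and it was listed at 0 in the mutant IP against 12.5 in the input. Rmrp, the RNA of the RNase MRP complex, stood at 5.29 against 4.46 in the wild type (log2 ratio 0.25) and at 1.18 against 5.90 in the mutant (−2.31). The mitochondrially encoded rRNAs were not in the mutant table, the only one with symbols.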
